A study of Mus musculus with 14 samples.

Results

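The cytosolic ribosomal protein genes encode the protein components of the ribosomes that translate nuclear mRNAs. They were taken here as the mouse genes whose symbol is Rpl or Rps followed by a digit, together with Rplp0, Rplp1, Rplp2 and Rpsa, without pseudogenes and without the S6 kinase genes. Of 95 such symbols in the RefSeq gene table, 86 were measured with 175 probes, among 20284 named genes on the arrays. The measured genes comprise 43 large-subunit proteins, 30 small-subunit proteins and 3 stalk proteins, called the 76 core genes below, and 10 paralogs or other genes that the symbol rule also takes in (Rpl3l, Rpl7l1, Rpl10l, Rpl22l1, Rpl36al, Rpl39l, Rps4l, Rps27l, Rps19bp1 and Rps23rg1). No probe was matched to the other 9 symbols, which are Rpl32l, Rpl32p, Rpl37rt, Rpl6l, Rps12l1, Rps23, Rps27rt, Rps3a2 and Rps3a3. Of the measured genes, 81 were well above background on all 12 arrays of the larger array design.

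The study profiled sorted primary cells of C57BL/6 mice on 14 one-colour Agilent arrays, in 7 groups of 2. Wild-type granulocyte-monocyte progenitors (GMP) of bone marrow were sorted for CD117 and the Fc receptors CD16 and CD32, without lineage markers, Sca-1, IL-7R or CD115, and GMP labelled IRF8KO were sorted with the same gate. Wild-type common dendritic cell progenitors (CDP) had intermediate CD117 with CD115 and CD135, and precursors of classical dendritic cells (pre-cDC) had CD11c, CD135 and CD172a without MHC class II; both came from bone marrow. Wild-type classical dendritic cells (cDC) of the spleen carried CD11c and MHC class II with either CD8 or CD4, and wild-type neutrophils (Neu) of bone marrow carried CD11b and high Ly6G. The CD4+ cDC were isolated with magnetic beads alone, the neutrophils by flow cytometry alone and the other groups by both in turn. The sources used here give neither age nor the number of animals behind a sample, so p-values measure the spread between 2 arrays of a group, which may be technical.

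Levels are given as log2 of the scanner's processed signal minus the 75th percentile of the same array, so that 1 unit is a doubling. The 75th percentile signal was lowest on the CDP arrays (88.8 and 89.2) and between 148 and 582 on the other arrays of the larger design. No spot was saturated, and the brightest core gene reached 103405 to 345932 against a saturation value of 780233 to 780340. The measured marker genes fixed for each labelled cell type were well above background on both arrays of that type. Ly6g (neutrophils) and Itgae (CD8+ cDC) were on the list but not measured. Not every marker was highest in its own group: Mpo, a GMP marker, had a mean of 9.67 in CDP and 9.31 in wild-type GMP. A larger exception was Sirpa, a pre-cDC marker, with a mean of 3.55 in pre-cDC and 6.26 in neutrophils. The Irf8 probe read 6.03 and 5.98 on the arrays labelled IRF8KO against 4.61 and 4.70 in wild-type GMP. The sources used here do not say whether that probe lies in the deleted part. The groups were hybridised slide by slide: both GMP groups share a slide, CD8+ cDC and neutrophils share another, and CDP, pre-cDC and CD4+ cDC each have one of their own. The CD4+ cDC arrays are of a smaller design and entered no test.

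A ribosome joins a small subunit, which reads the mRNA, with a large subunit, which forms the peptide bond, and the acidic stalk proteins of the large subunit recruit elongation factors. Ribosomal protein mRNAs are known as TOP mRNAs: they begin with a C followed by a run of pyrimidines, through which the mTORC1 pathway and the repressor LARP1 control their translation. Their genes are transcribed at high rates in growing cells, where MYC is a known activator of ribosome production. The proteins are needed in about equal amounts, and blood cells are known to be sensitive to their supply: loss of a single copy of Rps19 or other ribosomal protein genes causes Diamond-Blackfan anaemia in humans.

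Start sites from RefSeq (build GRCm38.p6) were matched for 65 of the 86 genes, 56 of them core genes. The 60-base windows below run 5′ to 3′ from 40 bases before the start site to 20 bases from it on. They are shown for 4 genes that fell in neutrophils against GMP, Rpl12 (log2 change -3.87), Rpl36a (-3.67), Rps2 (-3.16) and Rps18 (-2.97), and for 4 that were not called lower on the same scale, Rpl9 (-0.05), Rps27 (0.45), Rpl37 (0.53) and Rps9 (0.67). The genes were picked with these values known, from the ends of the range among tested core genes that met further conditions. One condition was that a gene had only 1 start site in the table. Deeper falls, such as that of Rpl10a (-4.16), are therefore not shown. Capitals mark the longest run of at least 6 pyrimidines within 20 bases of the start on the strand of the gene. The windows lie at chr2:32961672-32961731 (+) for Rpl12, chrX:134585614-134585673 (+) for Rpl36a, chr17:24720023-24720082 (+) for Rps2, chr17:33955646-33955705 (-) for Rps18, chr5:65391412-65391471 (-) for Rpl9, chr3:90213629-90213688 (-) for Rps27, chr15:5116573-5116632 (+) for Rpl37 and chr7:3704001-3704060 (+) for Rps9.
Rpl12: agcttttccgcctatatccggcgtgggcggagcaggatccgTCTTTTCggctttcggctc
Rpl36a: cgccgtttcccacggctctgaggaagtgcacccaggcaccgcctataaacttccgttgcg
Rps2: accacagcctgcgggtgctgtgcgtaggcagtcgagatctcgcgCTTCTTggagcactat
Rps18: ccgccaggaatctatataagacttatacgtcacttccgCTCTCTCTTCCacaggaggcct
Rpl9: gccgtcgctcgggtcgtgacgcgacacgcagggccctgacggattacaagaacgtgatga
Rps27: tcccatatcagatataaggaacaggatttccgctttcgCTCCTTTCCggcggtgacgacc
Rpl37: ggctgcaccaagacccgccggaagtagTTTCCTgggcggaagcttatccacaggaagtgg
Rps9: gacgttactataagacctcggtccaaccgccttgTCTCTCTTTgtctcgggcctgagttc
A pyrimidine run stood in this stretch in 6 of the 8 windows and was not found for Rpl36a and Rpl9, 1 gene of either set. Such a run was found for 38 of the 56 core genes (67.9%) and for 38.1% of all 27025 genes with a start site in the table. The letters CCGGAAG, the core to which ETS factors bind, were found on either strand within the 300-base promoter for 42.9% of the core genes and 9.93% of all genes. CTTTCC was found for 51.8% of the core genes and 29.3% of all genes on either strand, and can overlap a pyrimidine run. TATAA was found for 28.6% and 28.0%, and CAAGATGGC for 1.79% and 1.42%. These are matches of letters and say nothing of a bound factor.

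Ribosomal protein transcripts were lowest in neutrophils. The median of the 76 core genes, taken relative to the median of 13573 expressed genes on the same array over the probes that both designs share, was 6.25 ± 0.03 in neutrophils (log2, SD, n = 2) and between 7.37 and 8.57 in the 5 other groups of the larger design. It was 7.37 ± 0.07 in wild-type GMP, 7.55 ± 0.003 in GMP labelled IRF8KO, 7.47 ± 0.06 in pre-cDC (SD, n = 2 each). The highest values were 8.17 ± 0.12 for CD8+ cDC and 8.57 ± 0.02 for CDP (SD, n = 2). In the authors' deposited table, whose arrays have identical distributions of values, the same quantity was 5.99 in neutrophils and 7.55 to 7.82 in the 6 other groups. The neutrophil arrays therefore stood below all others on both scales, whereas the order of the other groups differed: CDP was highest from the scanner values and CD8+ cDC in the deposited table. In sorted bulk samples, fewer transcripts per cell and fewer cells of a type cannot be told apart.

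**Figure D1:**
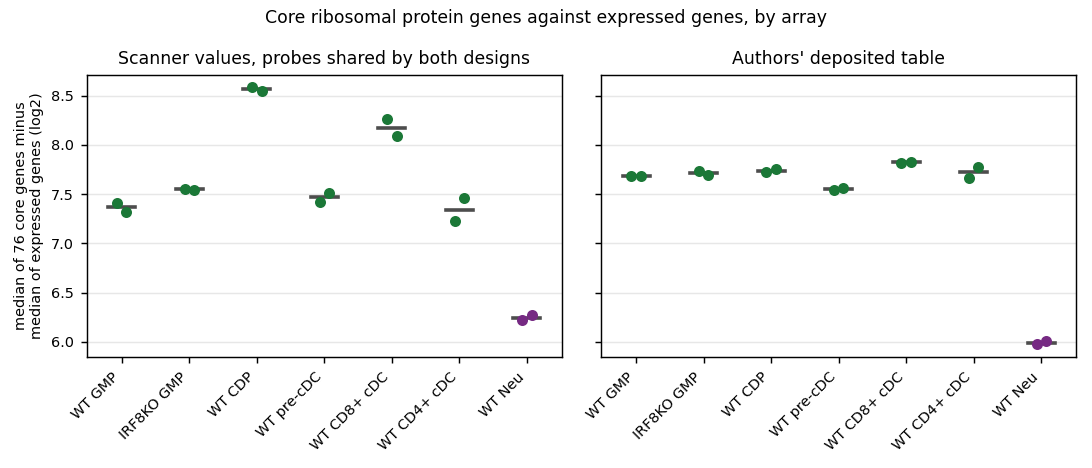
Median log2 level of the 76 core ribosomal protein genes minus the median of the expressed genes on the same array (vertical axis, log2), for each of the 2 arrays of a group (points) with their mean (bars), over the probes that both array designs share. From the scanner values (left) the means run from 6.25 in neutrophils (purple) to 8.57 in CDP; in the authors' deposited table (right) neutrophils stand at 5.99 and the other groups lie between 7.55 and 7.82.

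The neutrophil is a short-lived, non-dividing cell, and GMP are the progenitors from which it arises; comparing them asks how the transcripts of the ribosome differ between the progenitor and the end of the granulocyte lineage. Against wild-type GMP, 73 of the 84 tested ribosomal protein genes fell in neutrophils and 7 rose (limma, adjusted p under 0.05 over all genes tested). Of all genes tested, 92.2% were called, with 45.1% lower and 47.1% higher. The median change of the members was -1.44 on the log2 scale against 0.07 for all 12520 genes tested. Among the core genes 39 of 43 large-subunit genes, 26 of 30 small-subunit genes and all 3 stalk genes fell. All 73 falls were also called under each of the 6 scalings of the arrays that were tried, while of the 7 rises those of Rpl3l and Rps23rg1 were. The groups lie on different slides, so slide and cell type cannot be told apart in this comparison. Markers of other lineages also differed: the summed level of 5 basophil and mast cell markers was 6.51 to 6.56 in GMP (5 above background) and 1.04 to 1.08 in neutrophils (2 above background), and that of 5 erythroid markers was 4.88 to 4.90 (4 above background) and 2.81 to 2.86 (2 above background). Their part in the result was not tested.

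The falls differed widely in size. The deepest was that of Rpl10a, a large-subunit protein, which read 8.90 and 8.83 on the 2 GMP arrays and 4.71 on both neutrophil arrays. Its change of -4.16 ± 0.06 (SE) is a 17.8-fold lower level (adjusted p = 2.1e-10, limma), and its second probe changed by -4.36. The neutrophil values were the lowest of all groups among the 6 groups of the larger design, below the 8.71 and 8.73 of pre-cDC. Rpl3, a large-subunit protein close to the peptidyl transferase centre, read 8.37 and 8.26 in GMP and 4.24 and 4.30 in neutrophils, a change of -4.05 ± 0.05. Rpl12, a protein at the base of the stalk, went from 8.64 and 8.60 to 4.74 and 4.77, a change of -3.87 ± 0.05, and its other probe changed by -4.12. In each of these 3 genes the arrays of the 2 groups did not overlap, and the quantile-normalized changes were deeper, at -5.30, -4.85 and -4.82.

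Rpl36a, a large-subunit protein, fell from 7.22 and 7.13 in GMP to 3.49 and 3.51 in neutrophils (change -3.67 ± 0.06), with all 3 of its probes between -3.64 and -3.91. Rps19, the small-subunit protein whose loss is the classical cause of Diamond-Blackfan anaemia, fell from 7.46 and 7.44 to 4.06 and 4.07 (change -3.38 ± 0.05). Rps2, a small-subunit protein near the mRNA entry, fell from 8.02 and 8.09 to 4.88 and 4.91 (change -3.16 ± 0.05), and its other probe changed by -4.08. Each of these genes therefore fell by 8.92-fold or more, in comparison with 2.64-fold for Rpl10, the gene nearest to the median of the members (change -1.40 ± 0.09). The stalk genes lay near the median: Rplp0, the scaffold of the stalk, changed by -1.15 ± 0.09, Rplp1 by -1.98 ± 0.06 and Rplp2 by -1.31 ± 0.08. Rpl5, which with Rpl11 binds the 5S rRNA, changed by -2.57 ± 0.08 in a fit without 1 GMP array, on which its spot was marked as an outlier.

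At the other end, 4 core genes were called higher in neutrophils on the 75th-percentile scale, but under quantile normalization Rps9, Rps27 and Rps27a were not called and Rpl37 was called lower. Rps9, a small-subunit protein, read 8.61 and 8.57 in GMP and 9.25 and 9.28 in neutrophils, a change of 0.67 ± 0.06 that was 0.01 after quantile normalization. Rpl37 read 8.70 and 8.62 in GMP against 9.18 and 9.21 (change 0.53 ± 0.09, and -0.14 after quantile normalization). Rps27 read 8.30 and 8.24 against 8.72 and 8.73 (change 0.45 ± 0.09, and 0.07 after quantile normalization). Rps27a, which encodes ubiquitin fused to a small-subunit protein, changed by 0.67 ± 0.09 with its brightest probe (-0.23 after quantile normalization), while its 2 other probes changed by 0.85 and -2.13. Rps14, Rpl9, Rpl37a and Rpl41 had changes of 0.05, -0.05, -0.05 and -0.22 that missed the threshold (adjusted p = 0.65, 0.62, 0.43 and 0.070, limma); all 4 were called lower by quantile normalization, with changes between -0.68 and -0.97.

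**Figure D2:**
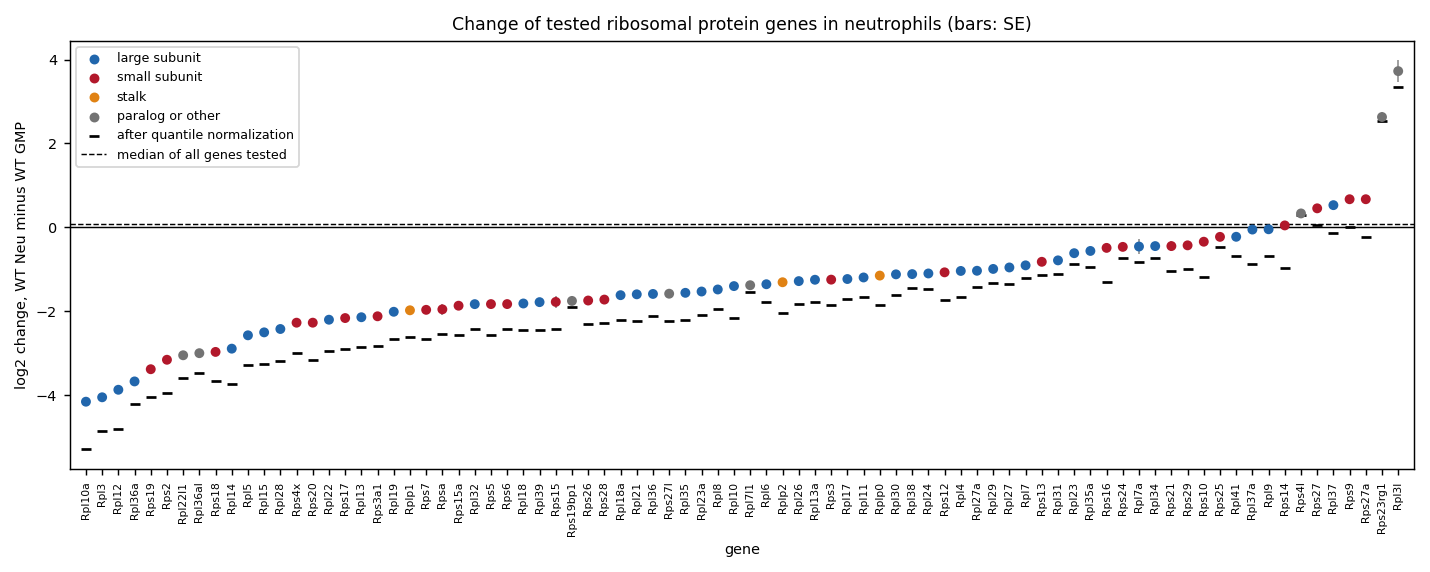
Log2 change of 82 of the 84 tested ribosomal protein genes in neutrophils against wild-type GMP (vertical axis), ordered by size (horizontal axis), with SE bars, coloured by subunit; black dashes give the change after quantile normalization. The changes run without a gap from -4.16 (Rpl10a) to 0.67 (Rps27a), apart from Rps23rg1 and Rpl3l at the right; the positive changes of Rps9, Rpl37, Rps27 and Rps27a lie at 0.07 or below after quantile normalization.

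Of the 50 core genes with several tested probes, 44 had every probe called lower in neutrophils and 2 (Rps3 and Rps27a) had probes called in both directions. Ribosomal protein genes have many processed pseudogenes, and a probe can also bind the transcripts of near-identical copies, which these signals do not separate. For Rps3, the small-subunit protein near the mRNA entry that also acts in DNA repair, the probes changed by -1.25 and 0.65, so its direction in neutrophils is uncertain.

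The comparison of CD8+ cDC with neutrophils sets 2 end-stage cells of the same slide against each other. Here 82 of 85 tested members were higher in CD8+ cDC and 2 were lower, where 42.8% and 43.4% of all genes tested were called higher and lower. The median difference was 1.99 for the members and -0.06 for all genes tested. All 43 large-subunit genes, 29 of 30 small-subunit genes and the 3 stalk genes were higher in CD8+ cDC on the 75th-percentile scale. Rps3 is counted among them by its brighter probe, but its probes were called in both directions. Over all members the counts after quantile normalization were also 82 and 2, and 81 were called higher under each of the 6 scalings. Fitted on the 4 arrays of this slide alone, 81 members were higher. Markers of other lineages differed here too. The summed level of 5 erythroid markers was 7.36 to 7.47 in CD8+ cDC (3 above background) and 2.81 to 2.86 in neutrophils (2 above background). For 6 T and NK cell markers it was 1.84 to 1.88 and 4.16 to 4.19 (3 above background in either group). Their part in the result was not tested.

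The genes with the deepest falls in neutrophils also stood at the top of this list. Rpl10a read 9.32 and 9.22 in CD8+ cDC, a difference from neutrophils of 4.56 ± 0.06 (23.5-fold; adjusted p = 1.6e-10, limma), Rpl12 differed by 4.33 ± 0.05 and Rpl3 by 4.30 ± 0.05. These comparisons share the neutrophil arrays, so the repeated order is not independent. The small-subunit gene that missed the threshold was Rps9, which read 9.44 and 9.29 in CD8+ cDC against 9.25 and 9.28 in neutrophils. Rpl8, a large-subunit protein at the peptidyl transferase centre, was nearest to the median, with a difference of 1.99 ± 0.07. The 2 members called lower in CD8+ cDC, Rpl3l and Rps23rg1, are described with the paralogs.

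The next comparisons follow the dendritic lineage, from GMP through CDP and pre-cDC to CD8+ cDC of the spleen. In them slide and cell type cannot be told apart, and the result depends on the scaling of the arrays. On the 75th-percentile scale, 78 of 83 tested members were higher in CDP than in wild-type GMP and 3 were lower (51.2% and 26.9% of all genes tested), with a median change of 1.36 against 0.29. After quantile normalization 33 were higher and 28 lower, with a median change of 0.04 against 0.01, and the authors' deposited table gave 34 and 24. Over all genes tested, 4508 were higher and 4205 lower after quantile normalization, and 4566 and 4148 in the deposited table. Higher calls made up 54.1% of the members' calls and 51.7% of all calls after quantile normalization. The 2 shares were 58.6% and 52.4% in the deposited table, so the members' split was near that of all genes on these scales. The calls of 23 members had opposite directions on different scalings. A general rise of ribosomal protein transcripts in CDP is therefore seen on some scales and not on others. CDP arrays had the lowest 75th percentile signal, 88.8 and 89.2 against 552 and 582 in GMP. The summed level of the erythroid markers was 4.88 to 4.90 in GMP and 0.64 to 0.69 in CDP (3 of 5 above background), that of the basophil and mast cell markers 6.51 to 6.56 and 2.15 to 2.21 (2 of 5), and that of 5 monocyte and macrophage markers 4.395 to 4.52 and 7.93 to 7.98 (3 of 5). The part of these values in the result was not tested.

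The calls of some members did not depend on the scale. Of the 83 genes, 33 were called higher and 3 lower in CDP under each of the 6 scalings. The same count was not made over all genes, so it does not set the members apart from other genes. Rpl29, a heparin-binding large-subunit protein, read 10.39 and 10.38 in CDP against 8.57 and 8.47 in GMP, a change of 1.86 ± 0.05 that remained 0.57 after quantile normalization. Rps26 changed by 1.80 ± 0.09 (0.48), Rps16 by 1.75 ± 0.06 (0.19) and Rplp1 by 1.71 ± 0.06 (0.35). The reverse was seen for Rps21, a small-subunit protein, which read 5.29 and 5.23 in CDP against 6.33 and 6.16 in GMP. It fell by 0.99 ± 0.11, and by 1.69 after quantile normalization, and was the core gene called lower in CDP on the 75th-percentile scale. Rps4l, the member nearest to the median, changed by 1.36 ± 0.06. For 6 genes, among them Rps3a1, Rpl17, Rps24, Rpl13 and Rpl7a, the probes of the gene were called in both directions, so their change in CDP is uncertain.

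From CDP to pre-cDC the members went down. On the 75th-percentile scale 79 of 83 fell and 3 rose (58.8% and 25.3% of all genes tested), with a median change of -1.35 against -0.49; after quantile normalization 57 fell and 10 rose, with a median of -0.42 against -0.23. Under each of the 6 scalings 55 members were called lower and 1 higher. Rps18, a small-subunit protein of the head, went from 9.03 and 8.98 in CDP to 6.79 and 6.94 in pre-cDC, a change of -2.14 ± 0.06. The next falls were those of Rps15a (-2.05 ± 0.07), Rpl22 (-1.98 ± 0.06), its paralog Rpl22l1 (-1.97 ± 0.06) and Rpl38 (-1.93 ± 0.07). Rpl22 is a large-subunit protein with a known role in lymphocyte development, and Rpl38 one whose loss changes the translation of Hox mRNAs in mouse embryos. Rps21 went against the others again, from 5.29 and 5.23 to 5.99 and 6.13, a rise of 0.80 ± 0.11. The third rise was that of Rpl4 (0.32 ± 0.11), which was -0.19 with arrays scaled by their medians, and the other that of the retrogene Rps23rg1. For Rps3a1, Rpl17 and Rpl7a the probes of the gene were called in both directions, so their change in pre-cDC is uncertain. The summed level of 7 neutrophil markers was 0.28 to 0.30 in CDP (2 above background) and 5.52 to 5.58 in pre-cDC (5 above background). For 5 basophil and mast cell markers it was 2.15 to 2.21 (2) and 5.01 to 5.21 (4). For 5 monocyte and macrophage markers it was 7.93 to 7.98 (3) and 5.64 to 5.70 (3). The part of these markers in the result was not tested.

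From pre-cDC to CD8+ cDC of the spleen, 75 of 84 tested members rose and 0 fell on the 75th-percentile scale (limma; 0 also at an unadjusted p under 0.05), where 40.2% of all genes tested rose and 34.7% fell. The median change was 0.64 against 0.08. After quantile normalization 60 rose and 7 fell, with a median of 0.33 against 0.07, and 58 members were called higher under each of the 6 scalings. Rpl22 read 7.15 on both pre-cDC arrays and 8.60 and 8.55 on the CD8+ cDC arrays, a change of 1.43 ± 0.06. Rpl14, a large-subunit protein, rose by 1.32 ± 0.08 and Rps21 by 1.34 ± 0.11; Rpl6, nearest to the median, rose by 0.63 ± 0.08. Rps15a is among the largest rises with its brightest probe (1.34 ± 0.07), but its other probes changed by -0.94 and -0.56 and the mean of all its probes by -0.05. Rps3 and Rpl31 also had probes called in both directions. Erythroid marker genes were summed at 7.36 and 7.47 on the CD8+ cDC arrays against 2.26 and 2.29 on the pre-cDC arrays, with 3 of 5 of them well above background on both arrays in either group; their part in the result was not tested.

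**Figure D3:**
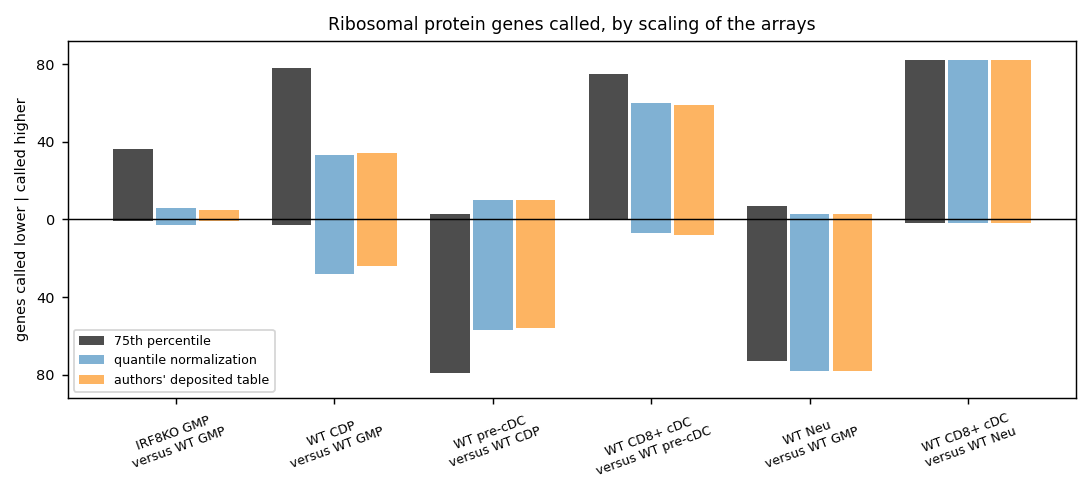
Number of tested ribosomal protein genes called higher (bars upward) and lower (bars downward) in each of 6 comparisons, with arrays scaled by their 75th percentile (grey), by quantile normalization (blue) or as in the authors' deposited table (orange). Counts in neutrophils against GMP (7, 3 and 3 higher) and in CD8+ cDC against neutrophils (82 higher in each) differ little between scalings, whereas 78, 33 and 34 genes were called higher in CDP against GMP.

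Changes in GMP labelled IRF8KO against wild-type GMP were small. On the 75th-percentile scale 36 of 84 tested members were higher and 1 was lower, where 15.2% and 10.5% of all genes tested were called higher and lower. The median change was 0.21 against 0.03 for all genes tested. The count depends on the scaling: 6 members were higher and 3 lower after quantile normalization, 5 and 1 in the authors' deposited table, and 4 and 1 with arrays scaled by their medians. Without wild-type replicate 2 the count of 36 became 9, without IRF8KO replicate 1 it was 14 and without IRF8KO replicate 2 it was 13. Both groups lie on the same slide, and on its 4 arrays alone 43 members were higher.

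The core genes with the largest called rises were Rps15 (0.47 ± 0.13, adjusted p = 0.040, limma), Rpl27a (0.41 ± 0.06, adjusted p = 0.0016), Rpl36a (0.37 ± 0.06) and Rpl39 (0.35 ± 0.05). Rpl27a, a large-subunit protein, read 8.46 and 8.44 on the arrays labelled IRF8KO and 8.11 and 7.97 on the wild-type arrays. Rpl27a, Rps19 and the paralog Rpl3l were called higher under each of the 6 scalings, and the lower call of Rps4l held under each as well. Rpl10a, nearest to the median, changed by 0.21 ± 0.06. Marker genes of other lineages moved with the comparison: the summed level of 5 erythroid markers was 0.70 and 0.74 on the arrays labelled IRF8KO against 4.88 and 4.90 in wild-type GMP, with 4 of the 5 well above background on both arrays in each group. That of 5 basophil and mast cell markers, all above background in both groups, was 4.98 and 5.01 against 6.51 and 6.56. The 7 neutrophil markers were summed at 5.10 and 5.19 (7 above background) against 3.23 and 3.25 (4 above background), and the 5 monocyte and macrophage markers at 6.26 and 6.39 against 4.395 and 4.52 (4 above background in either group). Their part in the result was not tested.

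The paralogs are close relatives of core genes, several of them known for expression in particular tissues, so each is given beside its partner as changes of its own probe. Rpl3l is the muscle paralog of Rpl3. It was not well above background in wild-type GMP or CD8+ cDC, and read -0.76 and -0.82 in neutrophils, at least 8.09-fold higher than in GMP (adjusted p = 1.9e-06, limma) and at least 9.0-fold higher than in CD8+ cDC. Rpl3 itself fell by 4.05 between the same GMP and neutrophil arrays, so the pair moved in opposite directions. In GMP labelled IRF8KO, Rpl3l was at least 1.41-fold higher than in wild-type GMP, at -3.59 and -3.03, near the limit of detection.

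Rps4l, listed in RefSeq as a transcribed pseudogene, is a relative of the X-linked Rps4x. It read 1.17 and 1.14 in wild-type GMP and 0.33 and 0.37 on the arrays labelled IRF8KO, a fall of 0.80 ± 0.06 (adjusted p = 0.00011, limma), and was the member called lower in that comparison. Rps4x rose by 0.23 ± 0.05 there. In neutrophils Rps4l changed by 0.33 ± 0.06, but by -0.18 with arrays scaled by their medians, while Rps4x fell by 2.27 ± 0.05.

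Rpl22l1, which can take the place of Rpl22 in the ribosome, fell by 3.05 ± 0.06 in neutrophils against GMP, where Rpl22 fell by 2.20 ± 0.06. From pre-cDC to CD8+ cDC Rpl22 rose by 1.43 ± 0.06 and Rpl22l1 by 0.57 ± 0.06. Rpl36al fell 8.0-fold in neutrophils, and its partner Rpl36a changed by -3.67 ± 0.06. The same direction was seen for Rpl7l1 (-1.38 ± 0.11), a relative of Rpl7 (-0.91 ± 0.05). In CDP against GMP, Rpl7l1 changed by -0.65 ± 0.11 while Rpl7 changed by 0.83 ± 0.05, but by -0.34 after quantile normalization. Rps27l, known as a p53 target, fell by 1.58 ± 0.06 in neutrophils, where Rps27 changed by 0.45 ± 0.09.

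Rps23rg1, a retrogene of Rps23, ran against most core genes in 4 of the 6 comparisons on the 75th-percentile scale. It read -0.46 and -0.34 in wild-type GMP and 2.22 and 2.24 in neutrophils, a rise of 2.63 ± 0.12 (6.19-fold; adjusted p = 1.2e-07, limma). It fell by 1.08 ± 0.12 from GMP to CDP, rose by 1.62 ± 0.12 from CDP to pre-cDC, and was lower in CD8+ cDC than in neutrophils by -1.32 ± 0.12. From pre-cDC to CD8+ cDC it rose by 0.77 ± 0.12, as most members did. Neutrophils and CDP were its extremes, at the opposite ends from most members. Rps19bp1, whose product binds Rps19 but is no ribosomal protein, fell by 1.75 ± 0.05 in neutrophils. Rpl10l and Rpl39l, the testis paralogs of Rpl10 and Rpl39, were well above background on 1 and 2 of the 12 arrays. Rpl39l was called higher in CD8+ cDC than in pre-cDC and in neutrophils, but it was not well above background in the latter groups and no fold above 1 can be given as a bound.

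Across the 6 groups of the larger design, the median range of group means was 2.69 for the core genes, 2.58 for all expressed genes and 2.23 for 12 reference genes such as Actb and Gapdh. The widest ranges among genes above background in all 6 groups were those of Rpl10a (5.47), Rpl12 (5.40), Rpl3 (5.38) and Rps2 (4.86); Rpl3l, not above background in 4 of the groups, has only a bound. In Rpl10a, Rpl12, Rpl3 and Rps2 neutrophils were lowest and CDP highest. The narrowest were those of Rpl7a (1.09), Rps14 (1.37), Rpl7l1 (1.40), Rpl23 (1.52) and Rpl9 (1.53). Rpl7a lacked 1 GMP value, and its probes disagreed in CDP. Relative to the expressed genes of the array, neutrophils were the lowest group for 60 of the 76 core genes and wild-type GMP for 13, while CDP were highest for 61 and CD8+ cDC for 15. After quantile normalization neutrophils were lowest for 70, and the highest group was CDP for 24, CD8+ cDC for 22, GMP labelled IRF8KO for 18, wild-type GMP for 9 and pre-cDC for 3.

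**Figure D4:**
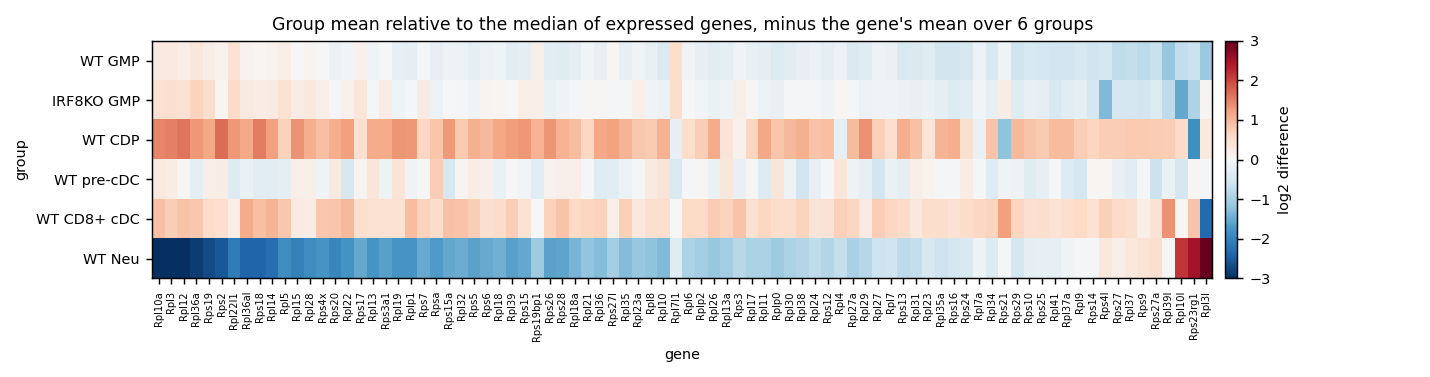
Group means of 84 of the 86 measured ribosomal protein genes (columns, ordered by their change in neutrophils) in 6 groups (rows), relative to the median of expressed genes and minus the gene's mean over the groups; colour gives the log2 difference, with values beyond 3 in either direction drawn at the end of the scale. Neutrophils are blue for most genes and red for Rps23rg1 and Rpl3l. CDP are red for most genes, with exceptions that include Rps21, Rpl7l1, Rps23rg1, Rpl7a and Rpl4. Most CDP differences from GMP shrink under quantile normalization, where 33 members were called higher and 28 lower in CDP.

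The CD4+ cDC can be set beside the others over the probes shared by both designs, without a test. The median of the core genes relative to expressed genes was 7.34 ± 0.17 in CD4+ cDC against 8.17 ± 0.12 in CD8+ cDC (SD, n = 2), and 7.72 against 7.82 in the authors' deposited table. Of 75 core genes with values in all 4 arrays, 73 had a lower mean level in CD4+ than in CD8+ cDC, with a median difference of -0.76, beside 55% and -0.11 for 13567 expressed genes. In the authors' deposited table the lower genes numbered 38 of 76 core genes, with a median difference of -0.0050 beside 46.2% and 0.09 for all expressed genes, so the lower level in CD4+ cDC is seen on the scanner scale and not in that table. On the scanner scale the largest differences were those of Rps3 (1.90 ± 0.40 against 6.96 ± 0.22) and Rps21 (2.30 ± 0.06 against 6.38 ± 0.25). The Rps3 value comes from the brighter of its 2 probes. These were called in opposite directions in other comparisons, so the difference of Rps3 is uncertain. The groups differ in array design, slide and isolation, which cannot be told apart from cell type.

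The rest of the translation machinery was read from lists of genes. Beside the neutrophil counts of this and the next paragraph, 45.1% of all genes tested were lower than in GMP and 47.1% higher, with a median of 0.07. Rack1 and Fau encode ribosomal proteins under other names, the latter as a fusion to a ubiquitin-like protein. In neutrophils against GMP Rack1 fell by 1.97 ± 0.09, while Fau rose by 1.58 ± 0.12. Among 27 TOP mRNAs and elongation factors, 23 fell and 3 rose, with a median of -1.74; Npm1, a nucleolar chaperone, fell by 5.69 ± 0.04 and Eif3b, a subunit of initiation factor 3, by 4.90 ± 0.06, while Vim rose by 1.59 ± 0.06. Of 20 tested initiation factors 15 fell and 4 rose (median -1.23), with Eif2b3, a subunit of the exchange factor of eIF2, at -5.58 ± 0.10.

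Genes that build ribosomes fell as well. In neutrophils 60 of 65 tested ribosome assembly genes were lower than in GMP and 1 was higher, with a median of -3.56; Tsr1, a factor of late small-subunit maturation, fell by 7.99 ± 0.09, Rcl1 by 7.64 ± 0.06 and Nop16 by 7.53 ± 0.18. All 5 measured snoRNA host genes fell (median -2.79), among them Snhg1 by 4.94 ± 0.34. The median of the core genes was -1.44; the difference between the lists was not tested. Of 76 tested mitochondrial ribosomal proteins, which serve the separate ribosome of mitochondria, 61 fell and 9 rose (median -1.25); Mrps2 fell by 6.90 ± 0.14 and Mrpl33 rose by 2.52 ± 0.06. All 25 cell cycle genes fell (median -3.95); their part in the result was not tested. Under each of the 6 scalings the medians of these lists, less that of all genes tested, stayed below 0 in neutrophils. This difference is the same by construction with both 75th percentiles and with array medians, since a constant per array cancels. Only quantile normalization, normexp and the deposited table could change it.

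From pre-cDC to CD8+ cDC, 24 of 25 cell cycle genes fell (median -1.54) while 75 of 84 ribosomal protein genes rose. Among all genes tested 34.7% fell and 40.2% rose there. The medians of the 2 lists relative to all genes tested kept opposite signs under each of the 6 scalings. Among these, both 75th percentiles and array medians give the same values by construction. In GMP labelled IRF8KO, 13 of 25 cell cycle genes fell on the 75th-percentile scale (limma), beside 10.5% of all genes tested, and Ccna2 fell by 0.49 ± 0.05. With arrays scaled by their medians 0 fell, where the list's median was still -0.20. From GMP to CDP, 30 of 65 ribosome assembly genes fell and 20 rose, with a median of -0.28, and 43 fell after quantile normalization. On the 75th-percentile scale 26.9% of all genes tested fell and 51.2% rose, with a median of 0.29. The assembly genes that fell included Mdn1 by 2.68 ± 0.14 and Dkc1, the pseudouridine synthase of H/ACA particles, by 1.83 ± 0.19. More of the assembly genes fell than rose under each of the 6 scalings. From CDP to pre-cDC 52 of 65 fell (median -0.92), where 58.8% of all genes tested fell with a median of -0.49. Ppan fell by 2.29 ± 0.09.

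**Figure D5:**
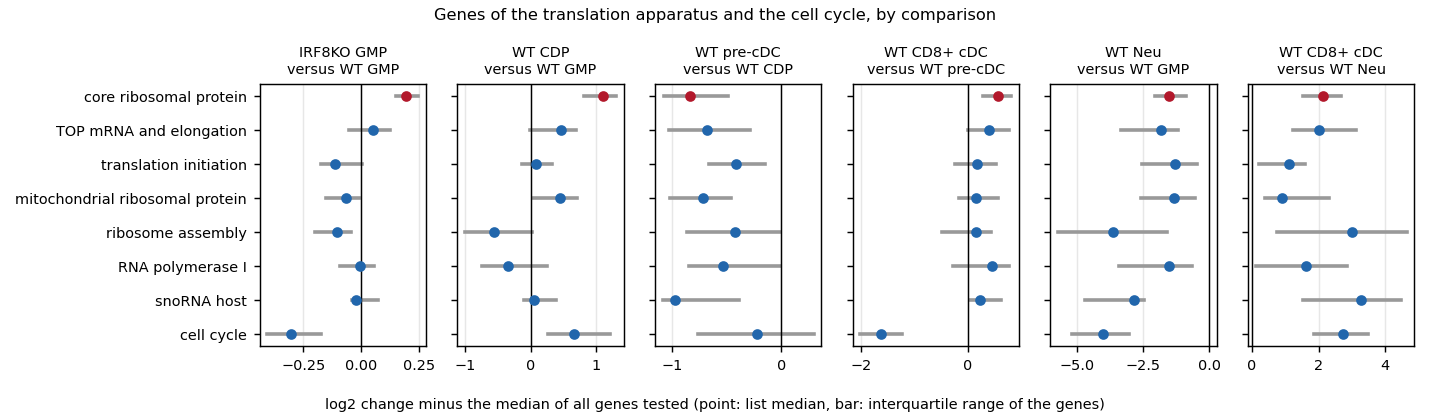
Median log2 change of each gene list minus the median of all genes tested (points; core ribosomal protein genes in red) with the interquartile range of the genes (bars), in 6 comparisons; the horizontal axes differ between panels. In neutrophils against GMP all 8 lists lie below 0, ribosome assembly and cell cycle lowest; in CD8+ cDC against pre-cDC the cell cycle list lies below 0 and the core genes above it. The core value in CDP against GMP, 1.10 here, is close to 0 after quantile normalization.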

How the data were processed

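Agilent Feature Extraction 10.7.3.1 made the scanner files, per the file headers, and their processed signal is a background-corrected intensity on a linear scale as deposited. The authors' deposited value tables also hold intensity values, sorted identically on all arrays as after quantile normalization; the sources used here do not say how they were made. From the scanner files, log2 of the processed signal minus each array's 75th percentile was computed, without control and outlier spots, averaging spots of a probe. A gene was read from its brightest probe. The 12 arrays of the larger design were fitted with limma 3.58.1 (lmFit, eBayes) in R 4.3.3, without a replicate block, over genes whose probe passed the scanner's background flag on each array of a compared group, with Benjamini-Hochberg adjustment over all of them; called means an adjusted p under 0.05. A bound ("at least") sets the brighter group against the lowest signal well above background on each array. Bounds were set for members only. The changes of genes on the other lists are point values, given without the background status of the lower group, so the size of a deep change may be limited by the background.

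The members and the gene lists were chosen with earlier results of these data known. Named are, per comparison, up to 5 members with the largest called rise and fall, the member nearest the median, each paralog with its partner, and the 5 widest and 5 narrowest ranges; other lists give up to 3 genes per direction. Genes printed outside this rule were chosen after their values were seen. In neutrophils these include Rps18, Rps14, Rpl9, Rpl37a, Rpl41, Rpl5, Rps3 and the stalk genes. Others are Rps9 in CD8+ cDC against neutrophils, Rps19 in GMP labelled IRF8KO, and Rps3 and Rps21 in CD4+ cDC. Genes whose probes were called in both directions were also named outside the rule. The 6 scalings are the 75th percentile over all or over detected probes, array medians, quantile normalization, normexp with an offset of 50 (on median instead of the planned mean signal) and log2 of the deposited table. Other alternatives were no filter, the mean of all probes, a replicate block, each array left out and, for groups sharing a slide, their 4 arrays alone. Same-numbered arrays of different groups did not deviate together (correlations -0.06 to 0.04 over 15 pairs). Precision is limited by 2 arrays per group. The fit was tested on simulated data. The results of some genes are not reported here; the counts and medians include them.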

Additional observations from a re-analysis of the deposited data

How the results depend on the processing

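The members' median change in neutrophils against GMP and in CD8+ cDC against neutrophils kept its direction under the alternatives run, whereas the rise in CDP and the small rise in GMP labelled IRF8KO depended on the scaling. The cause was not tested. Median changes below are those of the members minus that of all genes tested. In IRF8KO against wild-type GMP, 4 members were higher with array medians, 6 with quantile normalization, 5 in the deposited table and 20 without the filter on dim probes, against 36; the median change of 0.18 became 0.043, 0.028 and 0.29 under the last 3. In CDP against GMP, 33 were higher (28 lower) with quantile normalization and 34 (24 lower) in the deposited table, against 78; the median change of 1.07 became 0.024 and 0.029 there, 0.64 with normexp, 0.94 without the filter and 0.89 with the mean of all probes. For pre-cDC against CDP the median of -0.86 became -0.18 (quantile), -0.79 (normexp), -0.15 (deposited table) and -1.46 (no filter). For CD8+ cDC against pre-cDC, 0.56 became 0.26, 0.79, 0.20 and 1.07 in the same order. For neutrophils against GMP, -1.51 became -1.80, -1.91, -1.75 and -1.99, and -1.60 with the mean of all probes. For CD8+ cDC against neutrophils, 2.04 became 1.77, 2.31, 1.67 and 2.62, and 1.99 with the mean of all probes.

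Leaving out 1 array at a time gave counts of 9 to 26 and medians of 0.16 to 0.22 in IRF8KO against wild-type GMP, 77 and 1.05 to 1.13 in CDP, 78 and -0.94 to -0.82 in pre-cDC, 71 to 78 and 0.50 to 0.63 in CD8+ cDC against pre-cDC, 71 to 72 and -1.66 to -1.44 in neutrophils, and 81 to 83 and 1.93 to 2.11 in CD8+ cDC against neutrophils. Where this left 1 array in a group, that array was assumed to vary like the other groups. With a replicate block the counts were 32, 78, 79, 75, 72 and 82 in the order IRF8KO, CDP, pre-cDC, CD8+ cDC against pre-cDC, neutrophils, and CD8+ cDC against neutrophils; the numbers share no more than a label. Without the CDP arrays, an alternative chosen after seeing the data, the counts in the 4 comparisons without CDP were 30, 75, 72 and 81.

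Among the genes named by rule, the direction changed in 17 cases where the gene was called in the main or the alternative fit. A change of sign without a call in either fit was not counted. With array medians, Rpl4 in pre-cDC against CDP was -0.19, and in neutrophils Rps27 was -0.062 and Rps4l -0.18. With the percentile over detected probes Rpl7l1 in pre-cDC against CDP was 0.064 and Rps4l in neutrophils -0.0069. In CDP, Rpl10 was -0.060 with quantile normalization and -0.050 in the deposited table, and Rpl7 -0.34 and -0.29. In neutrophils Rps27a was -0.23, -0.17 in the deposited table and -0.20 with the mean of all probes, and Rpl37 -0.14 and -0.13. Rpl39l in CD8+ cDC against neutrophils was -0.063 with normexp, Rpl3 in IRF8KO GMP -0.00271 in the deposited table, and Rps15a in CD8+ cDC against pre-cDC -0.050 with the mean of all probes. The scaling also moved the median of all genes tested: with array medians it was -1.01 in pre-cDC against CDP (from -0.49), -0.44 in neutrophils (from 0.07), 0.31 in CD8+ cDC against pre-cDC (from 0.08) and 0.19 against neutrophils (from -0.06), and with detected probes -0.21 in CDP (from 0.29). Of all calls in CDP against GMP, 65.5% were higher, against 40.03% with detected probes and 51.7% with quantile normalization.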

Other observations

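In neutrophils against GMP, 45.1% of all genes tested were lower and 47.1% higher, so the counts of the MYC and mTORC1 lists below are near the share of any genes and are given as values. Of 9 tested genes of the MYC and MAX network, 4 were lower and 5 higher in neutrophils than in GMP: Myc, an activator of ribosome production, fell by 7.92 ± 0.13 and Mycn by 6.35 ± 0.22 (SE), while Mxd1, a partner of Max that opposes Myc, rose by 7.24 ± 0.09. From GMP to CDP Mycn fell by 6.51 ± 0.22 and Mycl rose by 4.53 ± 0.22. The background status of the lower group is not given for these genes, so the sizes are uncertain. In GMP labelled IRF8KO Mycn fell by 1.54 ± 0.22 (limma, adjusted p = 0.0019). Of 14 tested genes of RNA polymerase I and ribosomal DNA transcription, 11 fell and 2 rose in neutrophils, Polr1b by 6.74 ± 0.18; Polr1a, the largest subunit of the enzyme, rose by 1.89 ± 0.05. In the list of mTORC1, S6 kinase and TOP repressor genes 9 of 15 fell and 4 rose in neutrophils: Larp1, the TOP repressor, fell by 2.77 ± 0.06 and Eif4ebp1, an inhibitor of initiation, rose by 2.16 ± 0.06. These are transcript levels and give no activity of the pathway.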
